A study of Mus musculus with 2 samples.

Results

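The 33 genes described here are targets of the nuclear receptor PPAR alpha and enzymes of fatty acid oxidation in mouse liver: the receptor gene Ppara itself, omega-oxidation enzymes, the enzymes that carry fatty acids into mitochondria and shorten them there, their peroxisomal counterparts, acyl-CoA thioesterases and secreted or regulatory targets. They were taken from a fixed list of symbols, which was drawn up with earlier results of these data known, and a gene entered through every non-control probe that the array design files under its symbol. All 33 were found by symbol, through 44 probes and 71 spots, among 22601 genes on the array. A single probe stood for 25 of them and several probes for the other 8.

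Liver RNA was compared on 2 Agilent 2-colour arrays, 1 per genotype, from wild-type mice and from mice with a transgene for AID (activation-induced cytidine deaminase, an enzyme that deaminates cytosine in DNA), all on the C57BL/6 background. The design asks how the livers of both genotypes compare after 6 months of thioacetamide, a hepatotoxin, in the drinking water. The groups were untreated wild-type liver, thioacetamide-treated wild-type liver, untreated AID transgenic liver and thioacetamide-treated AID transgenic liver. On each array Cy5 held the treated and Cy3 the untreated liver of that genotype, with no dye swap, so treatment and dye cannot be told apart. The sources used here do not give the promoter that drives the transgene, the sex or age of the mice, or whether a channel held 1 animal or a pool.

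PPAR alpha binds DNA as a partner of the retinoid X receptors and is activated by fatty acids and by fibrate drugs. In liver it is known for raising the genes that activate, transport and oxidise fatty acids in fasting. Long-chain acyl-CoA enters mitochondria through the carnitine shuttle and is shortened there by beta-oxidation, very long chains are first shortened in peroxisomes, and omega oxidation by cytochromes P450 of the CYP4A family starts at the methyl end of the chain. Among its targets in rodents, the Cyp4a genes, Ehhadh, Pdk4, Vnn1 and the cytosolic and peroxisomal acyl-CoA thioesterases are commonly used as readouts of the receptor.

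The classical PPAR response element is a direct repeat of a hexamer with 1 base between the copies. RefSeq promoter windows (GRCm38.p6, 250 bases before to 50 after the start) were searched on both strands for AGGNCA followed after 1 base of any kind by AGGNCA, and for the hexamer AGGTCA alone. A window was found for 27 of the 33 genes, 30 windows in all, and none was used for Cyp4a10, Cyp4a14, Acaa2, Decr1, Angptl4 and Vnn1. The repeat was in 1 of 30 windows (3.33%), that of Fabp1, and in 0.381% of all 32851 windows. The hexamer, which the repeat can contain, was in 7 of 30 windows (23.3%), those of 6 genes, and in 16.3% of all windows. The Fabp1 stretch is printed because it holds the only repeat, and those of Acot4 and Cpt1a as genes of the thioesterase and carnitine-shuttle groups described further on. Each is written 5′ to 3′ on the gene's strand, and the capitals mark the match, which lies on the opposite strand in all of them.
Fabp1, chr6:71199787-71199849, plus strand, repeat starting 67 bases before the start site: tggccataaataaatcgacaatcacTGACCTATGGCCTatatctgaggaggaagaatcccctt
Acot4, chr12:84038341-84038378, plus strand, hexamer starting 13 bases before the start site: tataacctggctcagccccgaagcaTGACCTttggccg
Cpt1a, chr19:3323182-3323237, plus strand, hexamer starting 94 bases before the start site: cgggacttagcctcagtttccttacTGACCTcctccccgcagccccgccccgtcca
A match describes the letters of the window and is not a binding site.

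Values are log2 ratios of treated over untreated within an array, or log2 levels, the normalized intensity of 1 channel, which are compared within a gene and never between genes. With 1 array per genotype no test across mice was possible, so genes are described by a rule of size, at least 2-fold, and each ratio carries after ± the error that the scanner software gave its spots. That error is technical and covers 1 array. Over the 33 genes its median was 0.21 on either array. Of the 33 genes, 32 had a probe well above background in all 4 channels, and Acot2 lacked that in 1.

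The labelled tissue was checked on hepatocyte markers, of which 12 of 12 were well above background in every channel, with summed levels between 1213926 and 1281910. Of 9 adipocyte markers 3 to 5 were well above background in a channel, with Fabp4 between 9.54 and 10.01 in all of them and Adipoq, Plin1 and Ucp1 well above background in none; Cidea was at least 2.86-fold and Cfd at least 2.15-fold lower in treated than in untreated wild-type liver. The 9 macrophage markers summed to 14074 in untreated and 17208 in treated wild-type liver, and to 19117 and 39001 in the AID transgenic livers. Bright genes weigh most in such sums. Between the untreated livers the markers ran from -0.15 (Clec4f) to 2.54 (Marco), AID transgenic over wild-type, with a median of 0.08. Their median treatment ratio was 0.15 in wild-type and 0.92 in AID transgenic liver. The 8 stellate cell and myofibroblast markers summed to 5004 and 6256 in wild-type and to 7043 and 4098 in AID transgenic liver, and the 6 cholangiocyte markers to 843 and 1046 and to 941 and 778. In these whole-tissue samples fewer cells of a type and less RNA per cell cannot be told apart. Sex-linked transcripts differed within the wild-type array. The X-inactivation RNA Xist was at least 6.18-fold higher, and the Y-linked Eif2s3y at least 32.1-fold lower, in the treated than in the untreated channel. On the AID transgenic array Eif2s3y had a log2 ratio of -0.05, and Xist was well above background in no channel. Every comparison with treated wild-type liver carries this difference. Treatment and sex-linked transcripts cannot be told apart within the wild-type array. Nor can genotype and sex-linked transcripts between the treated livers or in the difference between the arrays.

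On the wild-type array 6 of the 33 genes (18.2%) were at least 2-fold higher in the treated liver, where 1.86% of 16519 measured genes were, and 0 were at least 2-fold lower, where 1.65% were. They were Cyp4a14, Pdk4, Cyp4a10, Acot3, Acot4 and Ehhadh. On the AID transgenic array 2 of 33 (6.06%) were at least 2-fold higher, Cyp4a14 and Pdk4, against 1.21% of 16546 measured genes, and 0 were lower, against 0.955%. The 33 genes had a median log2 ratio of -0.06 in wild-type and -0.11 in AID transgenic liver, beside 0.03 for all genes on either. With each array centred on its median in place of loess, these medians were 0.66 and 0.56, beside 0.35 and 0.34 for all genes, and the sign turned for 17 and 16 of the 33 ratios. With that centring 11 of 33 genes were at least 2-fold higher in treated wild-type liver, beside 10.4% of all genes, and 5 in treated AID transgenic liver, beside 8.15%.

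At the looser size of 1.5-fold, 9 genes (27.3%) were higher in treated wild-type liver, beside 6.02% of measured genes, and 3 were lower, beside 4.89%. The genes added above were Acot1, Acot2 and Vnn1, and those below were Acsl1, Slc25a20 and Acads. On the AID transgenic array 4 were higher, beside 4.77%, and 6 lower, beside 3.4%. Here Ehhadh and Fgf21 were added above, and Cpt1a, Slc25a20, Acads, Ech1, Acot1 and Angptl4 below, so the carnitine carrier and the short-chain dehydrogenase were below on both arrays.

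**Figure D1:**
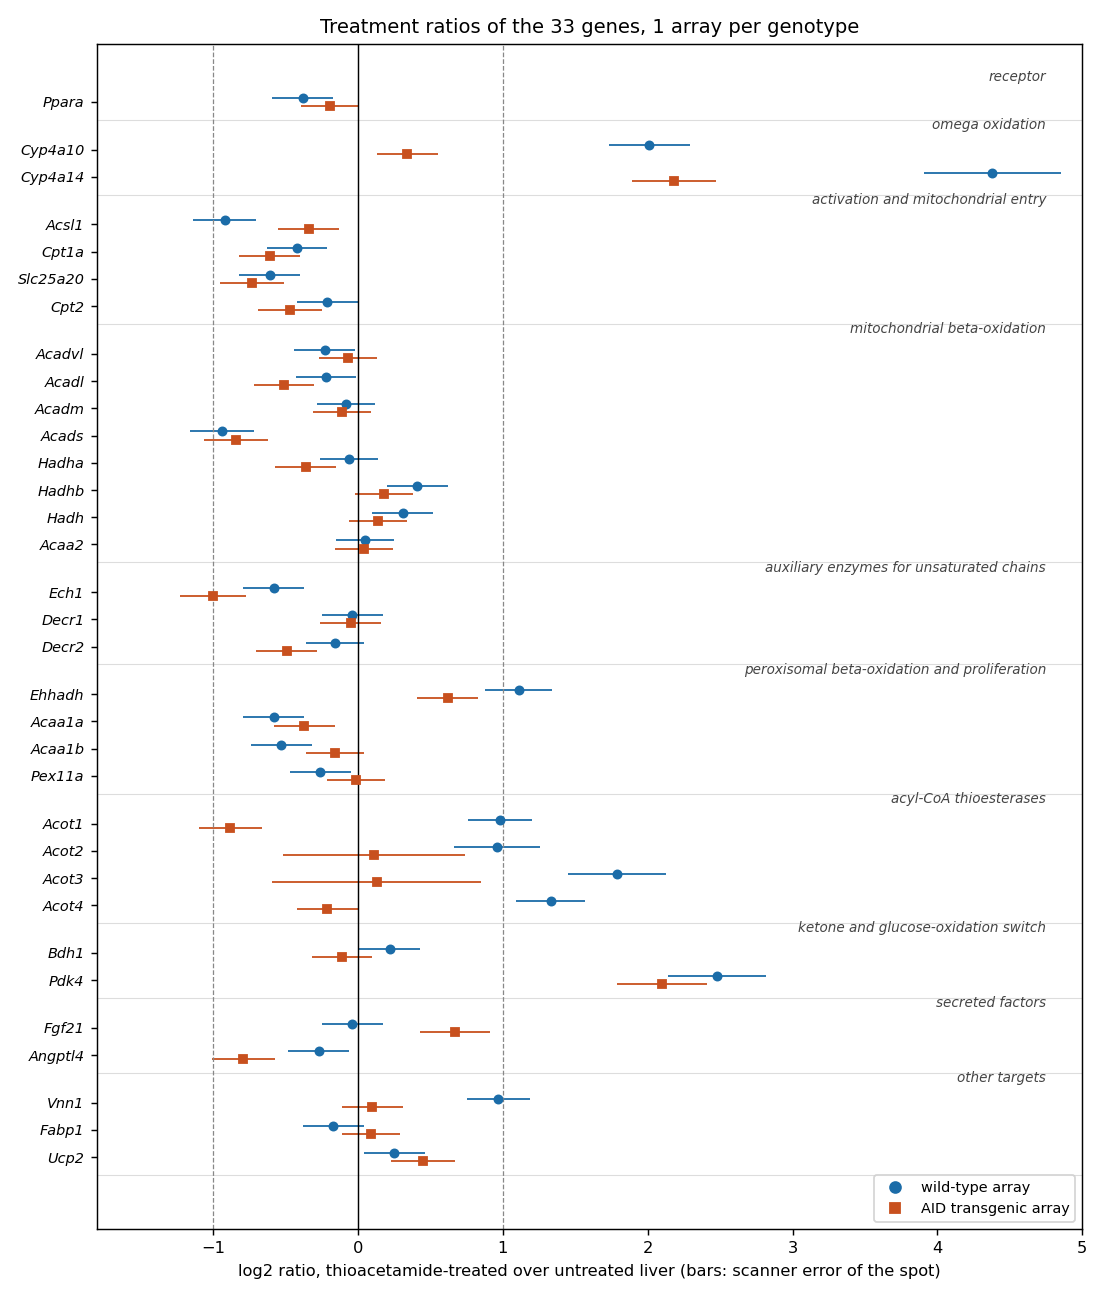
Log2 ratio of treated over untreated liver (x axis) for each of the 33 genes, grouped by role, on the wild-type array (circles) and the AID transgenic array (squares). Bars are the scanner's error of the spot and dashed lines mark 2-fold. Cyp4a14 and Pdk4 lie beyond the upper line on both arrays, and the 4 thioesterase genes lie at 0.96 or more on the wild-type array, while Acot1, Acot3 and Acot4 lie at 0.13 or less on the AID transgenic array, where the plotted Acot2 value rests on an untreated channel not well above background. With median centring most values below 0 turned above it.

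Ppara encodes the receptor. Its level was 12.54 in untreated and 12.16 in treated wild-type liver, and 12.36 and 12.17 in the AID transgenic livers. The channels thus lay within 0.38 of each other. Ppara ratios were -0.38 ± 0.21 in wild-type and -0.19 ± 0.20 in AID transgenic liver, and both turned above 0 with median centring, at 0.33 and 0.51. Its 3 probes gave ratios from -0.46 to -0.23 in wild-type liver.

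Cyp4a14 and Cyp4a10 encode fatty acid omega-hydroxylases and lie beside each other on chromosome 4, with probes within chr4:115158914-115206259 (mm9, a span of 47.3 kb). Cyp4a14 had the highest ratio of the 33 genes on both arrays. Its level went from 10.64 in untreated to 15.02 in treated wild-type liver, and from 11.59 to 13.78 in AID transgenic liver. The treated channel was the higher of the pair in both genotypes, and treated wild-type liver was the highest of all 4. The log2 ratios were 4.38 ± 0.47 (20.8-fold) and 2.18 ± 0.29 (4.54-fold), and over the 5 ways of normalizing or choosing probes they ran from 4.38 to 5.10 and from 2.18 to 2.88.

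Cyp4a10 stood at 11.73 in untreated wild-type liver, 13.74 in treated wild-type liver, 11.67 in untreated AID transgenic liver and 12.01 in treated AID transgenic liver. Treated wild-type liver was apart from the other 3 channels, which lay within 0.34. This gave log2 ratios of 2.01 ± 0.28 (4.02-fold) in wild-type and 0.34 ± 0.21 (1.26-fold) in AID transgenic liver. Its 3 probes differed in size, with 2.47, 2.25 and 1.30 in wild-type liver and 0.49, 0.42 and 0.11 in AID transgenic liver, but not in order between the arrays. Genes of this cluster are close paralogs, so a probe may also read a neighbour. In mice Cyp4a10 and Cyp4a14 are known to be higher in female liver and Cyp4a12a and Cyp4a12b in male liver. Cyp4a12a had log2 ratios of -5.93 and 0.47, and Cyp4a12b of -4.45 and 0.50, on the wild-type and AID transgenic arrays. Without Cyp4a10 and Cyp4a14, 4 of 31 genes were at least 2-fold higher in treated wild-type liver, beside 1.86% of measured genes. In treated AID transgenic liver 1 was, Pdk4, beside 1.21%. The other genes were measured in the same channels, so these counts still carry the sex-linked difference of treated wild-type liver.

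Acot1, Acot2, Acot3 and Acot4 encode thioesterases that release free fatty acids from acyl-CoA, in the cytosol (Acot1), in mitochondria (Acot2) and in peroxisomes (Acot3 and Acot4). Their probes lie within chr12:85334071-85400511 (mm9, a span of 66.4 kb). All 4 were higher in treated than in untreated wild-type liver, by log2 ratios of 0.96 to 1.79, and the ratios of Acot1, Acot3 and Acot4 on the AID transgenic array ran from -0.88 to 0.13. They are close paralogs that probes may not fully separate.

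Acot1 had a level of 11.83 in untreated and 12.81 in treated wild-type liver, and of 11.38 in untreated and 10.50 in treated AID transgenic liver. Treated wild-type liver was the highest channel and treated AID transgenic liver the lowest. On the log2 scale the ratios were 0.98 ± 0.22 (1.98-fold higher) in wild-type and -0.88 ± 0.22 (1.84-fold lower) in AID transgenic liver. These opposite signs held in all 5 settings, with 0.98 to 1.69 and -0.94 to -0.20. It was the only one of the 33 genes with opposite signs and a size of at least 0.5 on both arrays.

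Acot3 went from 7.62 to 9.41 in wild-type liver and from 6.54 to 6.67 in AID transgenic liver. Both wild-type channels lay above both AID transgenic ones. The log2 ratios were 1.79 ± 0.34 (3.46-fold) and 0.13 ± 0.72, as means of 2 probes. The dimmer probe was not well above background in untreated wild-type liver or in either AID transgenic channel. The brighter one was, in all 4 channels, and alone gave 2.08 and 0.14. The level in AID transgenic liver was close to the lowest level called well above background there (6.31 in Cy3 and 5.85 in Cy5).

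Acot4 went from 9.09 to 10.42 in wild-type liver and from 8.54 to 8.33 in AID transgenic liver, again with both wild-type channels above both AID transgenic ones. The log2 ratios were 1.33 ± 0.24 (2.52-fold) and -0.21 ± 0.21, the latter 0.31 with median centring.

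Acot2 was dim, at 6.62 and 7.59 in untreated and treated wild-type liver and 6.43 in treated AID transgenic liver, and it was not well above background in untreated AID transgenic liver. The wild-type log2 ratio was 0.96 ± 0.30. With loess the treated AID transgenic liver was at least 1.08-fold above the untreated one, a bound set by the lowest signal well above background. The scanner error of that ratio was 0.63. The ratio ran from -0.08 with median centring to 1.27 with the scanner's processed signals, so its direction is unsettled.

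**Figure D2:**
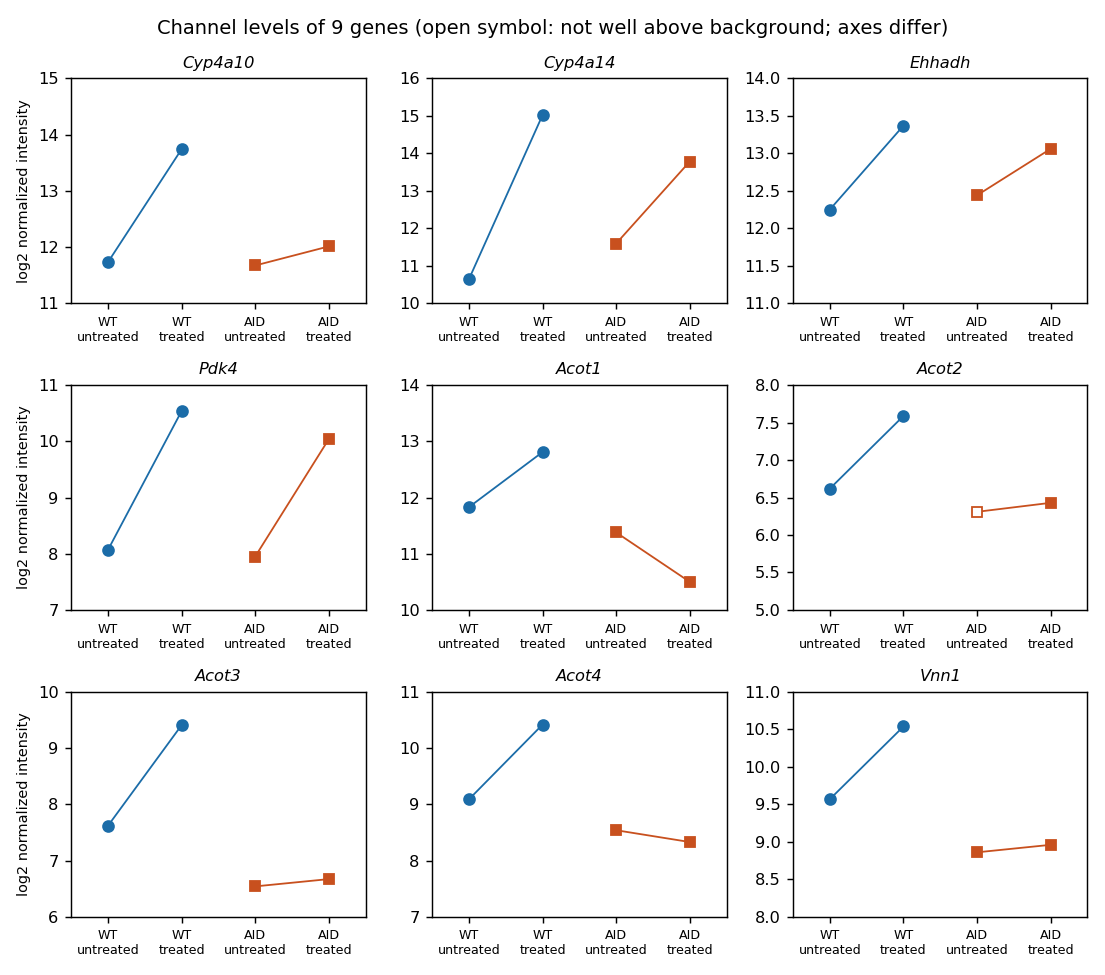
Log2 normalized intensity (y axis, scaled for each gene) of 9 genes in the 4 channels, wild-type in circles and AID transgenic in squares, each point 1 channel of 1 array, with a line joining the untreated and treated liver of a genotype. An open symbol marks a channel not well above background. The Acot genes and Vnn1 rise to the right in wild-type liver. In AID transgenic liver Acot1 falls, and Acot3, Acot4 and Vnn1 have ratios between -0.21 and 0.13 (with median centring 0.31 for Acot4 and 0.68 for Vnn1), whereas Pdk4 climbs in both.

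Peroxisomal oxidation and proliferation were represented by 4 genes. Ehhadh, the bifunctional hydratase and dehydrogenase of the peroxisome, had levels of 12.25 and 13.37 in untreated and treated wild-type liver and 12.44 and 13.06 in AID transgenic liver. Both treated channels were above both untreated ones. Ehhadh thus had ratios of 1.11 ± 0.23 (2.17-fold) and 0.62 ± 0.21 (1.53-fold), wild-type first. The peroxisomal thiolases Acaa1a and Acaa1b had ratios of -0.58 ± 0.21 and -0.53 ± 0.21 in wild-type and -0.37 ± 0.21 and -0.16 ± 0.20 in AID transgenic liver, all of which turned above 0 with median centring. Pex11a, a membrane protein of peroxisome division with 10 spots of its probe per array, had ratios of -0.26 (spot SD 0.01) and -0.01 (spot SD 0.02), which became 0.49 and 0.71 with median centring. These spots repeat 1 probe in 1 hybridization and are not replicates of mice.

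Genes of activation and mitochondrial entry all had ratios below 0 on both arrays, and 6 of their 8 ratios turned above 0 with median centring. Acsl1, the main acyl-CoA synthetase of liver, had a level of 14.09 in untreated and 13.18 in treated wild-type liver and 13.92 and 13.58 in AID transgenic liver. Its log2 ratio was -0.92 ± 0.22 and -0.34 ± 0.21. Cpt1a, which makes the acylcarnitine at the outer membrane, went from 11.58 to 11.16 and from 11.48 to 10.87, with ratios of -0.42 ± 0.21 and -0.61 ± 0.21. Its 2 probes gave -0.28 and -0.56 in wild-type and -0.50 and -0.71 in AID transgenic liver, and the 10 spots of the first had an SD of 0.02 and 0.03, so its probes differed by more than its spots. Slc25a20, the carnitine carrier of the inner membrane, had ratios of -0.61 ± 0.21 and -0.73 ± 0.22. Cpt2, which returns the chain to CoA inside, had -0.21 ± 0.21 and -0.47 ± 0.22.

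In the mitochondrial beta-oxidation spiral 7 of 8 genes lay within 0.51 of 0 on both arrays. The exception was the short-chain dehydrogenase Acads. Its level was 10.66 and 9.71 in untreated and treated wild-type liver and 10.51 and 9.67 in AID transgenic liver, with both treated channels below both untreated ones. Its ratios were -0.94 ± 0.22 (1.92-fold lower) and -0.84 ± 0.22 (1.78-fold lower), and they stayed below 0 in all 5 settings, nearest to 0 with median centring at -0.27 and -0.18. The long-chain dehydrogenases Acadvl and Acadl had ratios of -0.23 and -0.22 in wild-type and -0.07 and -0.51 in AID transgenic liver, and the medium-chain Acadm had -0.08 and -0.11. All of these were above 0 with median centring.

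The trifunctional protein, which carries the later steps for long chains, gave ratios of opposite sign for its subunits in wild-type liver: Hadha was at -0.06 ± 0.20 and Hadhb at 0.41 ± 0.21. In AID transgenic liver they were at -0.36 ± 0.21 and 0.18 ± 0.20. The wild-type Hadha ratio was smaller than its scanner error. With median centring both subunits were above 0, Hadha at 0.61 and 0.31 and Hadhb at 1.16 and 0.91, wild-type first. Hadhb and Hadh, the dehydrogenase of shorter chains, with 0.31 and 0.14, were the spiral genes above 0 on both arrays in all 5 settings. The thiolase Acaa2 had 0.05 ± 0.20 and 0.04 ± 0.20, with an SD over its 10 spots of 0.04 and 0.03.

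Of the auxiliary enzymes for unsaturated chains, Ech1, a dienoyl-CoA isomerase, had levels of 12.66 and 12.08 in wild-type and 12.65 and 11.65 in AID transgenic liver. The ratios were -0.58 ± 0.21 and -1.0 ± 0.23, the lowest of the 33 on the AID transgenic array and just short of 2-fold before rounding. With median centring they were 0.13 and -0.31. The dienoyl-CoA reductases Decr1 (mitochondrial) and Decr2 (peroxisomal) had -0.04 and -0.16 in wild-type and -0.05 and -0.49 in AID transgenic liver. The value of Decr1 is the mean of 2 probes of opposite sign, -0.37 and 0.28 in wild-type and -0.35 and 0.26 in AID transgenic liver, so its direction is unsettled.

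Pdk4 encodes the kinase that shuts off pyruvate dehydrogenase when fatty acids are burned. Its level was 8.07 in untreated and 10.54 in treated wild-type liver, and 7.95 and 10.04 in AID transgenic liver. Both treated channels were far above both untreated ones, and the genotypes differed little within a treatment. The log2 ratio was 2.48 ± 0.34 (5.57-fold) and 2.10 ± 0.31 (4.28-fold), and the difference between the arrays, -0.38, was smaller than its combined scanner error of 0.46. Bdh1, which interconverts the ketone bodies, had 0.22 ± 0.21 and -0.11 ± 0.21, the latter 0.56 with median centring.

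Fgf21, the fasting hormone of liver, stood at 7.58 in untreated and 7.54 in treated wild-type liver and at 7.23 and 7.91 in AID transgenic liver. The treated AID transgenic channel was the highest. The log2 ratio was -0.04 ± 0.21 and 0.67 ± 0.24, the latter 0.67 to 1.17 over the 5 settings. Angptl4, a secreted inhibitor of lipoprotein lipase, stood at 15.50 and 15.23 in wild-type and 15.35 and 14.56 in AID transgenic liver. Its ratio was -0.27 ± 0.21 and -0.79 ± 0.22, and with median centring 0.54 and -0.02. The order of the genotypes was thus opposite for these secreted factors.

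Vnn1, the pantetheinase vanin-1, went from 9.57 to 10.54 in wild-type liver and from 8.86 to 8.96 in AID transgenic liver, with both wild-type channels above both AID transgenic ones. The log2 ratio was 0.97 ± 0.22 (1.96-fold) and 0.10 ± 0.21, or 1.64 and 0.68 with median centring. Fabp1, the abundant fatty acid-binding protein of hepatocytes whose window above holds the repeat, had -0.17 ± 0.21 and 0.09 ± 0.20, or 0.72 and 0.92 with median centring. Ucp2, an uncoupling protein also known from macrophages, had 0.25 ± 0.21 and 0.45 ± 0.22. In the treated livers its levels were 8.26 in wild-type and 8.22 in AID transgenic liver, and the summed macrophage markers were 17208 and 39001. Their part in the Ucp2 values was not tested.

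Set side by side, 11 of the 33 genes were above 0 on both arrays, 17 below 0 on both and 5 had opposite signs. The same sign was thus shared by 84.8% of them, beside 73.5% of the 16108 genes measured on both arrays. In 14 of 33 genes (42.4%) both ratios lay within 0.5 of 0, as they did in 80.7% of all genes. Cyp4a14 and Pdk4 were the members at least 2-fold higher on both, where 101 of the 16108 genes were. With median centring the sign turned for 17 wild-type and 16 AID transgenic ratios, so the counts by sign depend on the normalization.

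**Figure D3:**
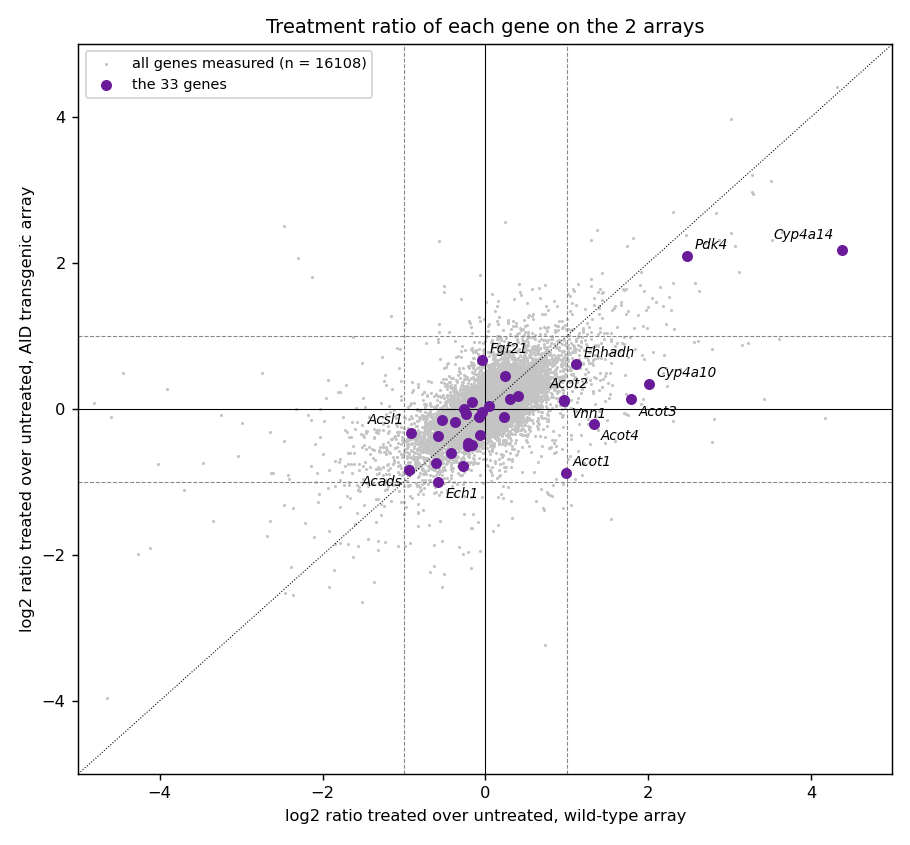
Log2 treatment ratio of each gene on the wild-type array (x axis) and the AID transgenic array (y axis), with all 16108 genes measured on both in grey and the 33 genes in purple. Dashed lines mark 2-fold and the dotted line equal ratios, and 4 genes lie outside the axes. Acot1, Acot3, Acot4, Vnn1 and the Cyp4a genes lie below the line of equal ratios, to the right of 0, and the AID transgenic value of Acot2 rests on an untreated channel not well above background.

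The difference between the log2 ratios, AID transgenic minus wild-type, asks whether treated livers differed from untreated ones by the same amount in both genotypes. It was at least 2-fold lower for 5 of the 33 genes (15.2%), beside 1.04% of 16957 measured genes, and at least 2-fold higher for 0, beside 0.932%. The 5 were Cyp4a14 at -2.19 (combined scanner error 0.55), Acot1 at -1.86 (0.32), Cyp4a10 at -1.67 (0.35), Acot3 at -1.66 (0.80) and Acot4 at -1.54 (0.32). All 5 stayed past 2-fold in the 5 settings, and Acot3 was at -1.94 on its brighter probe. Of the stellate cell and myofibroblast markers, 8 of 8 differences were also below 0 and 4 at least 2-fold lower (Col1a1, at -2.03, Col3a1, Acta2 and Lrat), as were 2 of 6 cholangiocyte markers, Krt19 at -1.46 and Spp1 at -1.14. Their part in these differences was not tested. Among the 33 genes Vnn1 followed at -0.87. Acot2, with untreated AID transgenic liver at background, has only a bound; its fitted difference of -0.85 was -0.67 with processed signals and -1.34 with normexp offset 0. The highest were Fgf21 at 0.71 (0.32) and Acsl1 at 0.58 (0.30). In all, 23 of 33 differences were below 0, with a median of -0.22, beside 50.5% of all genes and a median of 0.00, and no sign among the 33 turned in any of the 5 settings. Without Cyp4a10 and Cyp4a14, 3 of 31 genes were at least 2-fold lower, all of them thioesterases. Leaving out that pair does not take the sex-linked difference of treated wild-type liver out of the other genes. Its part in the thioesterase values was not tested. At 1.5-fold, 7 of 33 were lower, Acot2 included through its fitted value, beside 2.92% of measured genes, and 1 was higher, Fgf21, beside 2.95%.

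Channel against channel, the untreated AID transgenic liver was at least 2-fold below the untreated wild-type liver for 1 of 33 genes, Acot3 at -1.07, where 0.296% of 14174 measured genes were, and at least 2-fold above it for 0, where 0.31% were. That call was lost with median centring, at -0.79, and the value was -1.68 on the brighter Acot3 probe and -2.26 with the scanner's processed signals. At 1.5-fold, 4 genes were lower, beside 0.96% of measured genes, and 1 was higher, beside 0.988%. Cyp4a14 was at 0.95, Vnn1 at -0.71, Pex11a at -0.70, Acaa1b at -0.62, Acot4 at -0.56 and Acot1 at -0.45. In these untreated livers 27 of the 33 genes were below 0, with a median of -0.15, beside 50.6% of all genes. This comparison holds no treated wild-type liver, and the sex-linked Ddx3y and Eif2s3y were at 0.10 and -0.06 in it. Cyp4a12a and Cyp4a12b, named above as higher in male liver, were at -1.16 and -1.03 in the same comparison. Whether sex-dependent expression has a part in these untreated values was not tested.

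In the treated livers 7 of 33 genes (21.2%) were at least 2-fold lower in AID transgenic than in wild-type liver, beside 0.744% of 16929 measured genes, and 0 were higher, beside 0.738%. They were Acot3 at -2.73 (-3.62 on its brighter probe), Acot1 at -2.31, Acot4 at -2.10, Cyp4a10 at -1.73, Vnn1 at -1.58, Cyp4a14 at -1.24 and Acot2 at -1.16. At 1.5-fold, 8 were lower, the eighth being Angptl4 at -0.67, beside 2.02%, and 0 were higher, beside 2.47%. Again 27 of 33 were below 0, with a median of -0.28, beside 51% of all genes. Ppara itself was at 0.01 and the carnitine-shuttle genes ran from -0.41 to -0.28, so the largest values were those of the thioesterase, Cyp4a and Vnn1 genes. In the same channels Ddx3y was at least 17.5-fold and Eif2s3y at least 29.8-fold higher in AID transgenic liver, and Xist at least 7.37-fold lower. Both comparisons and the difference share channels, so they are not independent views of these genes.

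**Figure D4:**
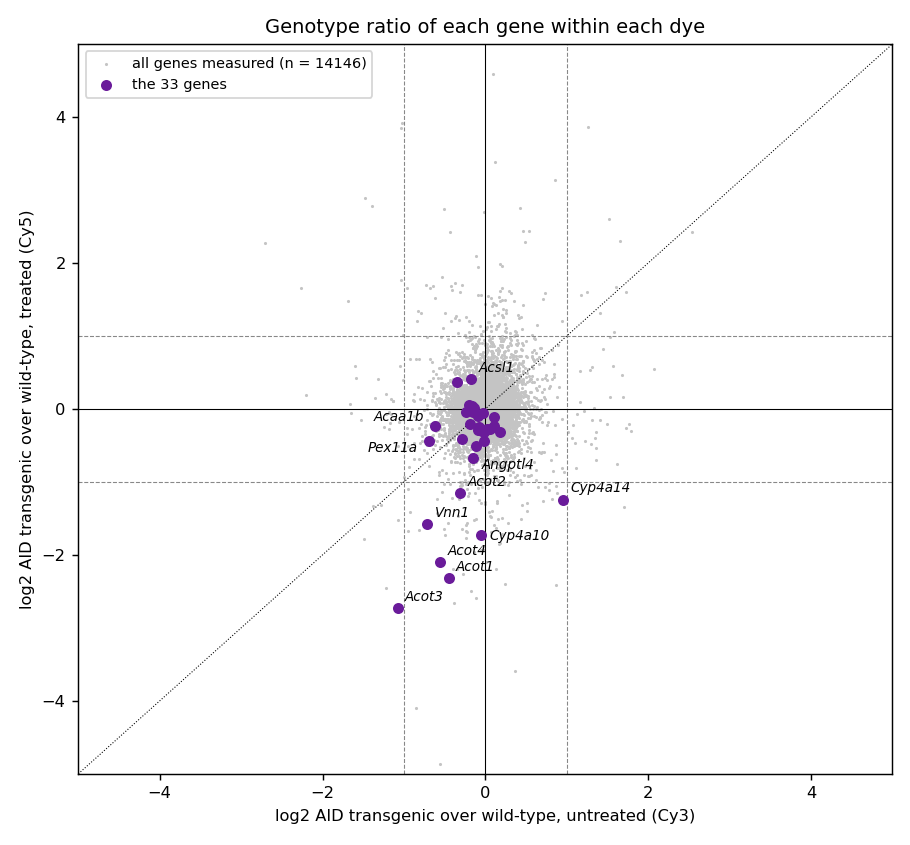
Log2 ratio of AID transgenic over wild-type liver for each gene in the untreated (Cy3, x axis) and the treated channels (Cy5, y axis), with all 14146 genes measured in both in grey and the 33 genes in purple. Dashed lines mark 2-fold, the dotted line marks equal ratios, and 6 genes lie outside the axes. The genes farthest down are Acot3, Acot1 and Acot4, and Cyp4a14 lies right of 0 in untreated and below 0 in treated liver.

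The rest of the pathway was followed through 86 further genes in 5 lists. In wild-type liver 3 of 86 reached 2-fold above 0, beside 1.86% of all measured genes, and 9 below 0, beside 1.65%. In AID transgenic liver 1 of 84 measured reached 2-fold on either side, beside 1.21% above and 0.955% below. The higher ones were inducible targets: Cd36, a fatty acid transporter, at 2.15 ± 0.29 and 1.67 ± 0.27, and Cyp4a31 and Cyp4a32, paralogs of Cyp4a10, at 1.52 and 1.46 in wild-type and 0.15 and 0.11 in AID transgenic liver. Cd36 is also a macrophage gene. The macrophage marker sums were 14074 in untreated and 17208 in treated wild-type liver, where its ratio was the higher. They were 19117 and 39001 in AID transgenic liver. Between the treated livers Cd36 was at -1.41, AID transgenic over wild-type. The part of macrophages in the Cd36 values was not tested. In the same list of 21, G0s2, an inhibitor of triglyceride lipase, was at -1.59 ± 0.25 in wild-type and 0.01 in AID transgenic liver. Its wild-type ratio ran from -1.65 to -0.91 across the settings of normalization and probe choice.

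Of 17 other mitochondrial and ketogenic genes, 14 had ratios below 0 on either array, with medians of -0.20 and -0.24. Of all measured genes 45.3% and 45.4% were below 0, wild-type first. The highest were Acot13, a thioesterase, at 0.45 in wild-type liver and Cpt1b, the muscle form of the carnitine acyltransferase, at 0.30 in AID transgenic liver.

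Of 21 other peroxisomal genes, 3 were at least 2-fold lower in treated wild-type liver: the CoA diphosphatase Nudt7 at -2.14 ± 0.28, the epoxide hydrolase Ephx2 at -1.47 ± 0.24 and the sterol carrier protein and thiolase Scp2 at -1.18 ± 0.24. On the AID transgenic array they were at -0.79, -0.34 and -0.30, of which the last pair turned above 0 with median centring. The wild-type ratios also depended on the settings of normalization and probe choice. They ran from -2.19 to -1.40 for Nudt7, from -1.47 to -0.70 for Ephx2 and from -1.28 to -0.35 for Scp2. Only Nudt7 thus stayed past 2-fold in every setting.

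Of 18 receptors and coregulators, Lpin1, a phosphatidate phosphatase that also acts with PPAR alpha as a coactivator, was at -1.92 ± 0.32 and -2.44 ± 0.37. Its level was 10.14 and 8.22 in wild-type and 10.15 and 7.70 in AID transgenic liver, with both treated channels below both untreated ones. The Lpin1 ratios are means of 2 probes, whose SD was 0.35 in wild-type and 1.25 in AID transgenic liver. The other 17 had no value of 2-fold on either array. The partner receptor Rxra was at -0.53 and -0.43, and Ppard, a relative of Ppara, at 0.68 and 0.53.

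Of 9 other CYP4 genes, Cyp4a12a, Cyp4a12b and Cyp4v3 were at least 2-fold lower in treated wild-type liver, Cyp4v3 at -1.09 ± 0.23, and none was 2-fold on the AID transgenic array. Across the settings of normalization and probe choice the wild-type Cyp4v3 ratio ran from -1.09 to -0.32. The AID transgenic ratios reached 1.17 for Cyp4a12a and 1.21 for Cyp4a12b. Of 14 clock genes, which set daily rhythms that many of these enzymes follow, Arntl was at 2.62 ± 0.40 and 1.62 ± 0.28 and none of the others reached 2-fold. The sources used here do not give the time of day at which livers were taken.

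**Figure D5:**
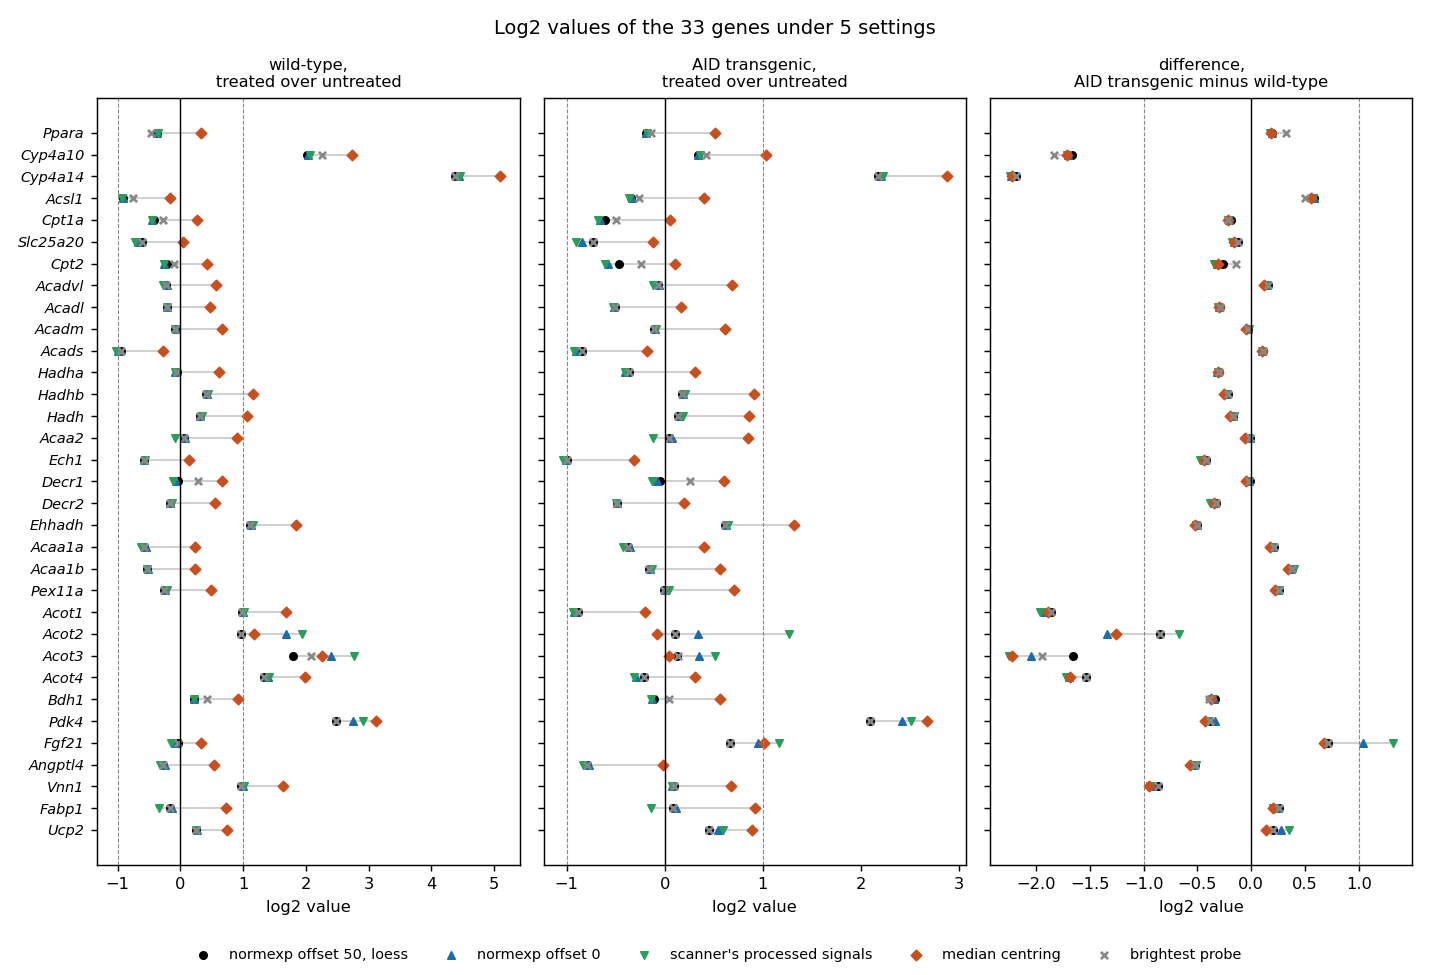
Log2 values of the 33 genes under 5 settings (symbols, key below the panels), for the treatment ratio on each array and for the difference between the arrays. Dashed lines mark 2-fold. Median centring (diamonds) moves nearly all treatment ratios to the right and leaves most differences nearly in place. The differences of Acot3 and Acot2 move from -1.66 to -2.22 and from -0.85 to -1.26. All 33 differences keep their sign.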

How the data were processed

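Each array's scanner output was deposited (Agilent Feature Extraction 10.7.3.1 per the file headers, 10.5.1.1 per the submitters' processing notes). Mean and background signals are deposited as intensity values, and the software's processed signals are intensity values that, per the file headers, were background-subtracted and dye-normalized. The authors' log ratio is a deposited log10 of Cy5 over Cy3, also held by the series' value table, which equalled it on all 44397 features. The deposited error of that ratio is a score of the scanner's error model in log10 units, turned here into log2. The array design is annotated on mm9, per the file headers.

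Signals were corrected with limma 3.58.1 (R 4.3.3; normexp, offset 50) and loess within each array, with Aquantile between arrays for levels and genotype ratios. Control spots and 197 and 207 outlier spots were left out. Of the 43020 non-control spots, the share well above background was 56% and 53.9% for Cy3, 68.4% and 68.8% for Cy5, and 0 were saturated. Spots were averaged per probe and probes per gene. A gene counts as measured where a probe was well above background in at least 1 channel compared. Probes took their gene from the design's symbol (25924 of 39429) or a unique synonym (3993), checked against RefSeq names. Both arrays lay on 1 slide and scan. The pipeline was tested on simulated data. There were 5 comparisons and 8 alternatives, and no test across mice. All 33 genes are named, with further listed genes at 2-fold. Members and lists were chosen with earlier results of these data known. Results of some listed genes are not reported here.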

Additional observations from a re-analysis of the deposited data

Results flagged for a closer look

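Acot1, the cytosolic thioesterase, moved in opposite directions on the 2 arrays: its log2 ratio of treated over untreated liver was 0.98 in wild-type and -0.88 in AID transgenic liver, a difference of -1.86. With 1 array per genotype this difference was not tested. With median centring the ratios were 1.69 and -0.20. The treated wild-type channel also differed from the other 3 in sex-linked transcripts, and the part of that in the Acot1 value was not tested.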

How the results depend on the processing

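Counts of genes at 2-fold and medians were recomputed under 8 alternatives. With median centring 11 genes were higher in treated wild-type and 5 in treated AID transgenic liver (beside 10.4% and 8.15% of all genes), the medians were 0.66 and 0.56, and 0 genes were lower in untreated AID transgenic than in untreated wild-type liver. With the scanner's processed signals 4 genes were higher in treated AID transgenic liver (beside 9.07% of all genes). In the untreated genotype comparison 2 were lower with them (beside 1.43%). With those signals, and also with normexp offset 0, 1 gene was lower on each array (Acads in wild-type, Ech1 in AID transgenic liver). Of all genes 3.66% and 2.83% were lower with processed signals, and 2.45% and 1.61% with offset 0, wild-type first. In both settings 1 difference was higher (Fgf21), beside 4.71% of all genes with processed signals and 2.21% with offset 0. At 1.5-fold, 3 genes were lower on the wild-type array, 4 higher and 6 lower on the AID transgenic array, 1 difference was higher, and 1 gene was higher and 4 lower in untreated AID transgenic liver. Without Cyp4a10 and Cyp4a14, 1 gene was higher on the AID transgenic array (beside 1.21% of all genes) and 3 differences were lower (beside 1.04%). The cause of these moves was not tested. The counts and medians of the treated genotype comparison stayed within 1.5 times or within the scanner error in every alternative run. Median centring turned the sign of 17 wild-type and 16 AID transgenic ratios, and the processed signals of 1 and 3, but of 0 differences. The dim Acot2 ran from -0.08 to 1.27 on the AID transgenic array over the 5 settings. No paired analysis was possible because each genotype has 1 array. Without replicates, no value here has an error across mice.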

Other observations

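Genes beside the thioesterase cluster were looked at after the values of its members were seen. In the RefSeq order the 4 genes are followed by Acot5 and Acot6, further paralogs. Acot5 had log2 treatment ratios of 0.43 in wild-type and -0.28 in AID transgenic liver, and Acot6 of 0.52 and 0.00. In treated liver AID transgenic over wild-type was -0.97 for Acot5 and -0.65 for Acot6. On the other side Riox1, which is not a thioesterase, had -0.23 and -0.11, and -0.09 in treated liver. In the Cyp4a cluster Cyp4a31 and Cyp4a32 were at -1.52 and -1.65 in treated liver, and Cyp4a12a and Cyp4a12b at 5.23 and 3.92.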
